A study of Abies pinsapo with 12 samples.

Results

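Among the 329801 transcripts of Spanish fir (Abies pinsapo) needles, 86 in a chosen range of mean level varied by at most 1.75-fold over the 12 libraries of a field experiment. Transcripts outside that range of means also met this limit and are not counted here. They were chosen from the measured values themselves: a mean of 100 to under 1000 scaled TPM over the 12 libraries, and a highest value at most 1.75 times the lowest. Scaled TPM is the deposited unit, a transcript's length-corrected share of its library (TPM) multiplied by 1 factor per library. The mean alone kept 1226 transcripts, and the 86 are 7.01% of these.

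The needles came from adult trees growing in the field in southern Spain, in natural stands of this drought-sensitive fir. Control trees stood in dense stands with no thinning, Thinning trees in plots whose tree density was lowered in 2004, and Thinning and Shading trees in thinned plots under a mesh that brought light down to about the level of the control plots. Needles were sampled in August 2016 and May 2017, with 2 libraries for each treatment and month, so that 12 libraries form 6 groups. The months belong to different years and were visited a single time, so an effect of season cannot be told apart from one of year or sampling batch, and nothing in the labels says whether the 2 libraries of a group came from separate trees, so their spread may be technical.

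A reference transcript is one whose level stays put across the conditions of an experiment; in quantitative PCR the signal of a gene of interest is divided by that of such references to correct for the amount of RNA put in. In plants these roles have traditionally been given to housekeeping genes such as those for actin, tubulin, ubiquitin and elongation factors, whose products every cell uses, and each must be checked anew in a given tissue. The needle of a Mediterranean conifer goes through summer drought in August and shoot growth in May, so a reference for such material has to hold across a wide change of state. The table identifies transcripts by assembly number only and pairs none with a gene name, so it is not known here whether any traditional reference is among the 86, no function is given, and the needle label could not be checked against marker genes.

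Sequencing depth is unknown, since TPM keeps none. Column totals ran from 856638 to 1179097 scaled TPM, with all 6 August columns below all 6 May columns. TPM has a fixed sum, so these totals reflect the scaling factor of each library and not its depth. Between 81710 and 117855 transcripts were above 0 in 11 libraries and 208032 in Thinning May replicate 1. The protocol text speaks of pine seedling roots, whereas all tissue and organism labels say fir needles, and the samples were taken as labelled.

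The steady transcripts sat mainly at the low end of their range. Their means ran from 100.2 to 806 scaled TPM with a median of 137. Between 100 and 200 there were 60 of them, between 200 and 500 there were 23, and at 500 or more there were 3. TRINITY_DN19626_c0_g2 had the highest mean, 806 ± 112 (SD, n = 12), followed by TRINITY_DN2308_c0_g3 at 711 ± 62.8 and TRINITY_DN5217_c0_g1 at 623 ± 84.5. The lowest means belonged to TRINITY_DN5148_c0_g2 at 100.2 ± 12.5, TRINITY_DN3370_c0_g1 at 102 ± 13.5 and TRINITY_DN21508_c0_g2 at 102 ± 15.9. Together the 86 made up between 1.27% and 1.85% of a column's total.

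Steadiness of this degree became rarer as the level rose. Of 9114 transcripts with a mean of 10 to under 30, 14.4% were within the same limit, and of 4083 with a mean of 30 to under 100, 11.3% were. The share was 7.95% of 755 transcripts between 100 and 200, 6.57% of 350 between 200 and 500, and 2.48% of 121 between 500 and 1000. None of the 67 transcripts at 1000 or more was within the limit as deposited, while 2 of them were within it once each column was rescaled to one total. Transcripts with a mean of 1 to under 10 were within the limit in 4.81% of 32218 cases; at such levels the spread includes counting error, whose size cannot be computed without depth.

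**Figure D1:**
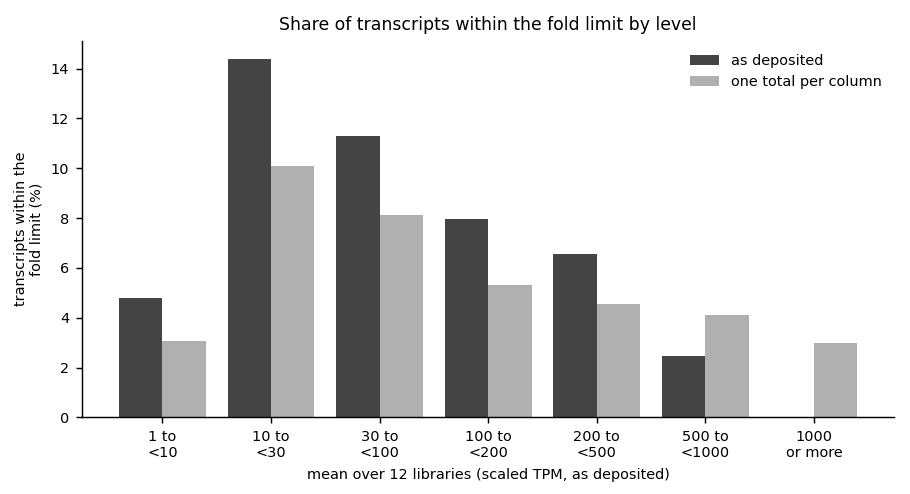
Share of transcripts (vertical axis, percent) whose highest value over 12 libraries was at most 1.75 times the lowest, by mean level in scaled TPM (horizontal axis), as deposited (dark bars) and with one total per column (light bars). As deposited, the share falls from 14.4% at a mean of 10 to under 30 to 2.48% at 500 to under 1000.

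The rule sets the limit at an arbitrary point of a continuous distribution. Just inside it lay TRINITY_DN1923_c0_g1, TRINITY_DN1647_c0_g1 and TRINITY_DN6757_c0_g1, all with a highest value 1.74 times the lowest. Just outside lay TRINITY_DN18673_c0_g1 at 1.75, above the limit before rounding, and TRINITY_DN5251_c0_g2 and TRINITY_DN16048_c1_g2, both at 1.76. The median over the 86 was 1.58, and over all 1226 transcripts of the same level it was 3.42. At a limit of 1.5 there would be 23 transcripts and at a limit of 2 there would be 188. A single library weighed heavily on the list: without Thinning May replicate 2 the rule admitted 148 transcripts, 84 of them among the 86, while leaving out any other library gave between 88 and 104.

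The narrowest range belonged to TRINITY_DN10619_c0_g1, at a mean of 150.4 ± 13.1 scaled TPM (SD, n = 12). It stood at 164 and 155 in the Control libraries of August, 136 and 146 in Thinning, and 168 and 164 in Thinning and Shading. In May it stood at 142 and 133 in Control, 133 and 164 in Thinning, and 142 and 158 in Thinning and Shading. The highest value was 1.26 times the lowest, and the months overlapped widely.

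TRINITY_DN3654_c0_g1, at 127 ± 11.1, had a highest value 1.32 times its lowest. In August it read 112 and 113 in Control, 127 and 111 in Thinning, and 133 and 138 in Thinning and Shading. In May it read 133 and 136 in Control, 123 and 146 in Thinning, and 125 and 124 in Thinning and Shading. The Control libraries of August were among its lowest, and all 6 May libraries were at 123 or more.

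TRINITY_DN2308_c0_g3 combined a narrow range with a high level, its highest value being 1.35 times its lowest. Its August values were 772 and 757 in Control, 688 and 741 in Thinning, and 753 and 659.6 in Thinning and Shading. Its May values were 760.0 and 681 in Control, 601 and 809.7 in Thinning, and 650.3 and 658 in Thinning and Shading. Its lowest and its highest value were therefore the 2 replicates of Thinning in May. The next in order were TRINITY_DN2651_c0_g1 at 1.37, TRINITY_DN389_c0_g2 at 1.38 and TRINITY_DN2651_c0_g2 at 1.42, with means of 114 ± 11.7, 145 ± 15.7 and 111 ± 12.3. The coefficient of variation over the 12 libraries ran from 8.71% to 19.5% across the 86, with a median of 14.1%.

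**Figure D2:**
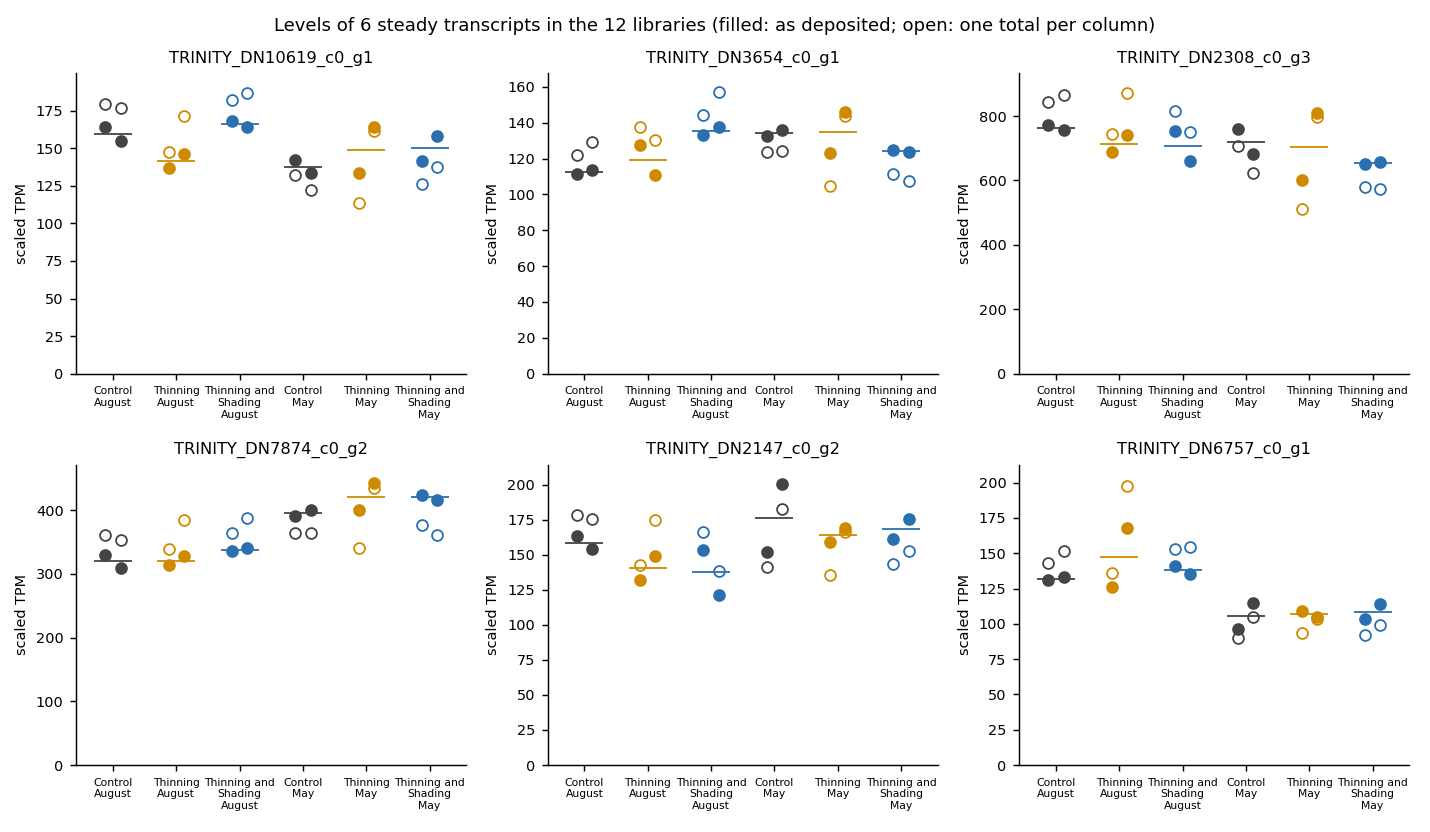
Level in scaled TPM (vertical axes, from 0) of 6 steady transcripts in each of the 12 libraries, grouped by treatment and month; filled points are values as deposited, open points are values after each column is rescaled to one total, and bars are the means of the 2 deposited values. The top row holds the 3 narrowest ranges as deposited (1.26, 1.32 and 1.35); below, TRINITY_DN7874_c0_g2 shows a month step that the rescaling closes, and TRINITY_DN6757_c0_g1 one that it widens.

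The spread between replicates of a group was set beside the spread of the group means. The median SD of single libraries within groups was 0.165 log2 units, and the median SD of the 6 group means was 0.165 as well. The SD of the group means was the larger in 48 of the 86. A mean of 2 libraries scatters less than a single library. Equal figures therefore do not show that groups differed no more than replicates did. For all 1226 transcripts of this level the medians, on log2(scaled TPM + 1), were 0.392 within groups and 0.453 between group means. The rule bounds all of these values together, so the smaller figures of the 86 follow from their choice. Over the 1226 transcripts the median replicate SD was 0.448 in May and 0.256 in August, and over the 86 it was 0.157 and 0.150. The rule caps the spread of members in both months, so nothing is read from that contrast. The largest gap between 2 replicates ran from 0.483 log2 units in Thinning and Shading in May to 0.800 in Thinning in May.

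The extremes were not spread evenly over the libraries. Control May replicate 2 held the highest value of 24 of the 86 transcripts and the lowest of 2. Thinning May replicate 1 held the lowest value of 17 and the highest of none. Thinning May replicate 2 was an extreme in both senses, with the highest value of 13 and the lowest of 13. Thinning and Shading August replicate 1 held the highest of 13 and the lowest of none. By month, August libraries held 39 highest and 37 lowest values, and May libraries 47 and 49.

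**Figure D3:**
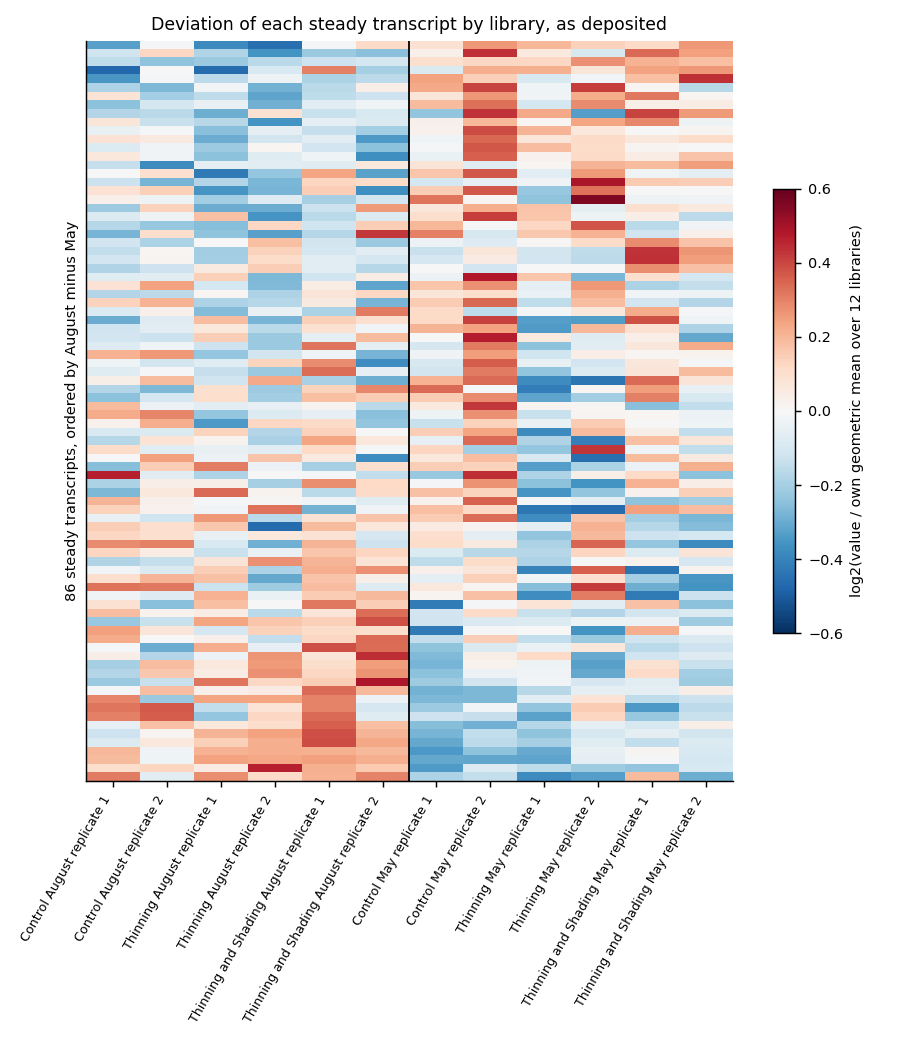
Each row is 1 of the 86 steady transcripts, ordered by its August minus May difference, and each column 1 library; colour is log2 of the deposited value over the transcript's own geometric mean of 12 libraries. Rows at the top are lower in the 6 August libraries (left of the line) and rows at the bottom higher, within a range of -0.35 to 0.38 log2 units, and the column of Control May replicate 2 holds 24 row maxima.

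As deposited, differences between August and May were small and went both ways. The August minus May difference, averaged over treatments, ran from -0.35 to 0.38 log2 units with a median of -0.03; 40 transcripts were higher in August and 46 in May, and 30 differed by less than 0.1. In Control trees the median difference was -0.10, in Thinning trees 0.01 and in Thinning and Shading trees 0.03. The sign was the same in all 3 treatments in 43 of the 86, with 20 higher in August and 23 lower. By limma on log2(scaled TPM + 1), 0 of the 86 were called between the months at an adjusted p under 0.05 and 13 had an unadjusted p under 0.05, while of all 19726 transcripts tested 15.7% were called and 34.1% had an unadjusted p under 0.05. The rule limits the month difference of each member, so nothing is read from that count. Without Thinning May replicate 1 it was 6, where 6468 of all 19726 transcripts tested were called. Without Thinning May replicate 2 it was 4, where 4478 of 19726 were called. With only transcripts at 50 or more tested it was 4, where 1003 of 4834 were called.

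Within single treatments, where 2 August libraries face 2 May libraries, many members had months that did not overlap. In Control trees 16 members (18.6%) were higher in August and 29 (33.7%) lower, beside 19.9% and 32.4% of all tested transcripts. In Thinning trees 25 (29.1%) were higher and 21 (24.4%) lower, beside 24.4% and 21.7%. In Thinning and Shading trees 32 (37.2%) were higher and 22 (25.6%) lower, beside 26.2% and 29.9%. After each column was rescaled to one total the balance turned to August: in Control trees 44 members were higher and 3 lower (TRINITY_DN5217_c0_g1, TRINITY_DN673_c0_g1 and TRINITY_DN7874_c0_g2), beside 34.3% and 17.0% of all tested transcripts. In Thinning trees 41 were then higher and 2 lower (TRINITY_DN53_c0_g1 and TRINITY_DN5652_c0_g3), beside 36.7% and 10.3%. In Thinning and Shading trees 65 were higher and 1 lower (TRINITY_DN1923_c0_g1), beside 45.1% and 16.3%. The members named here were taken after their values had been seen, and since the rule used these values nothing is read from the counts.

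In 3 of the 86 the months did not overlap over all 12 libraries, 1 higher in August and 2 lower, against 4.21% and 4.47% of all tested transcripts. TRINITY_DN6757_c0_g1 stood at 131 and 133 in Control, 126 and 168 in Thinning and 141 and 136 in Thinning and Shading in August. In May it stood at 96.3 and 115, 109 and 105, and 103 and 114 in the same order. Its means were 139 ± 15.0 in August and 107 ± 7.07 in May (SD, n = 6), 0.37 log2 units apart, and every August library was above every May library.

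TRINITY_DN7874_c0_g2 went the other way. Its August values were 330.2 and 309.8 in Control, 314 and 328 in Thinning, and 336 and 340.3 in Thinning and Shading, and its May values 391 and 399.8, 399.9 and 443, and 424 and 416. The means were 326 ± 12.1 and 412 ± 19.1 (SD, n = 6), a difference of -0.34 log2 units with replicates of each group close together. TRINITY_DN5148_c0_g2, at 91.9 ± 6.03 in August and 108 ± 12 in May, differed by -0.23, its months parted only by the gap between 99.0 and 99.7. The count of 3 was 8 without Control August replicate 1, 6 without Control August replicate 2, 6 without Thinning and Shading May replicate 1 and 5 without Thinning and Shading May replicate 2. Leaving out a library cannot make parted months overlap, so a rise was nearly fixed in advance.

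Steadiness depended on how the libraries were put on one scale. When each column was rescaled to the same total, 40 of the 86 (46.5%) stayed within the limit. Applied afresh to the rescaled values, the rule gave 61 transcripts, of which the same 40 (65.6%) were shared and 21 had a ratio above the limit as deposited. The median ratio of the 86 moved from 1.58 to 1.81, and the widest, that of TRINITY_DN8795_c0_g1, from 1.72 to 2.33. Under quantile normalization 76 of the 86 stayed within the limit, and under scaling by median ratios 81 did. The median-ratio factors ran from 0.9655 in Thinning May replicate 2 to 1.0356 in Thinning and Shading August replicate 1. Median ratios thus changed the deposited values little, so the 81 is not a separate check of steadiness. Under all 4 scalings, the deposited one included, 37 transcripts in 28 assembly components stayed within the limit.

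The rescaling acted along the months, because all May columns had larger totals, that is, larger scaling factors. It added 0.303 log2 units to the August minus May difference of every transcript, so that 82 of the 86 were then higher in August and 4 in May, with a median of 0.27 and a range from -0.05 to 0.68. Over all transcripts tested the median difference moved from -0.055 to 0.256. Of the 46 members that left the limit, 35 had been higher in August as deposited; of the 40 that stayed, 5 had been. Months that did not overlap then numbered 14 higher in August and 0 lower, against 10.7% and 1.28% of all tested transcripts. By limma on rescaled values 25 of the 86 were called, all higher in August, where 22.6% of all transcripts tested were called in that direction. These counts use the values that chose the members and are a description.

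**Figure D4:**
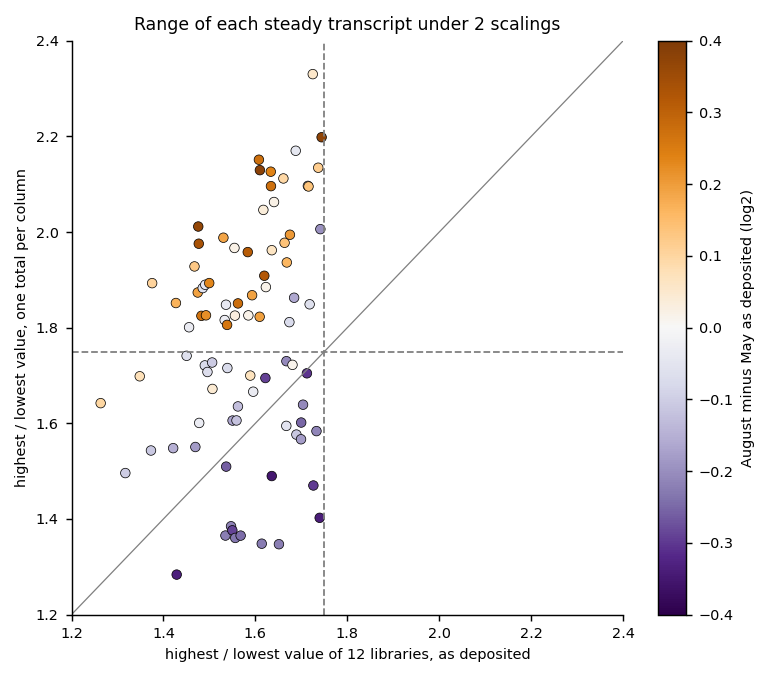
Highest over lowest value of the 12 libraries for each of the 86 steady transcripts, as deposited (horizontal axis) and with one total per column (vertical axis); dashed lines mark the limit of 1.75, the grey line equality, and colour the August minus May difference as deposited. The 46 points above the horizontal dashed line left the limit on rescaling, and 35 of them were higher in August as deposited.

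Rescaling made another set of members the steadiest. TRINITY_DN7874_c0_g2, whose months had parted as deposited, had the narrowest rescaled range, its highest value being 1.28 times its lowest, with August values from 339 to 388 and May values from 341 to 435. TRINITY_DN2147_c0_g2 and TRINITY_DN2147_c0_g1 followed, both at 1.35 after 1.65 and 1.61 as deposited. TRINITY_DN5148_c0_g2 came to 1.36, and TRINITY_DN1690_c0_g2 and TRINITY_DN5148_c0_g1 to 1.37. TRINITY_DN10619_c0_g1, the steadiest as deposited, went from 1.26 to 1.64, and TRINITY_DN6757_c0_g1 from 1.74 to 2.20.

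At the tighter limit of 1.5, 23 members passed as deposited, 12 after rescaling, and 2 in both: TRINITY_DN3654_c0_g1 (1.32 and 1.5) and TRINITY_DN7874_c0_g2 (1.43 and 1.28). Under quantile normalization TRINITY_DN3654_c0_g1 was at 1.34 and TRINITY_DN7874_c0_g2 at 1.44, and under median ratios at 1.40 and 1.51. TRINITY_DN5217_c0_g1, among the 3 most abundant members, stayed within the limit under each scaling, its highest value being 1.54 times the lowest as deposited, 1.51 times rescaled, 1.34 times by quantiles and 1.58 times by median ratios. These 3 were singled out after their values had been seen.

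Taken as 1 panel, the 86 transcripts had a geometric mean between 150.4 scaled TPM in Thinning May replicate 1 and 177 in Control May replicate 2, a ratio of 1.18. In August the geometric mean ran from 156 to 170.0, and in May from 150.4 to 177, so that the months overlapped. After rescaling it ran from 170.5 to 187 in August and from 128 to 161 in May, with every August library above every May library and a ratio of 1.45 over all 12. Thinning May replicate 1, which listed the most transcripts above 0, was the lowest library on both scales; the part of that count in the result was not tested.

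**Figure D5:**
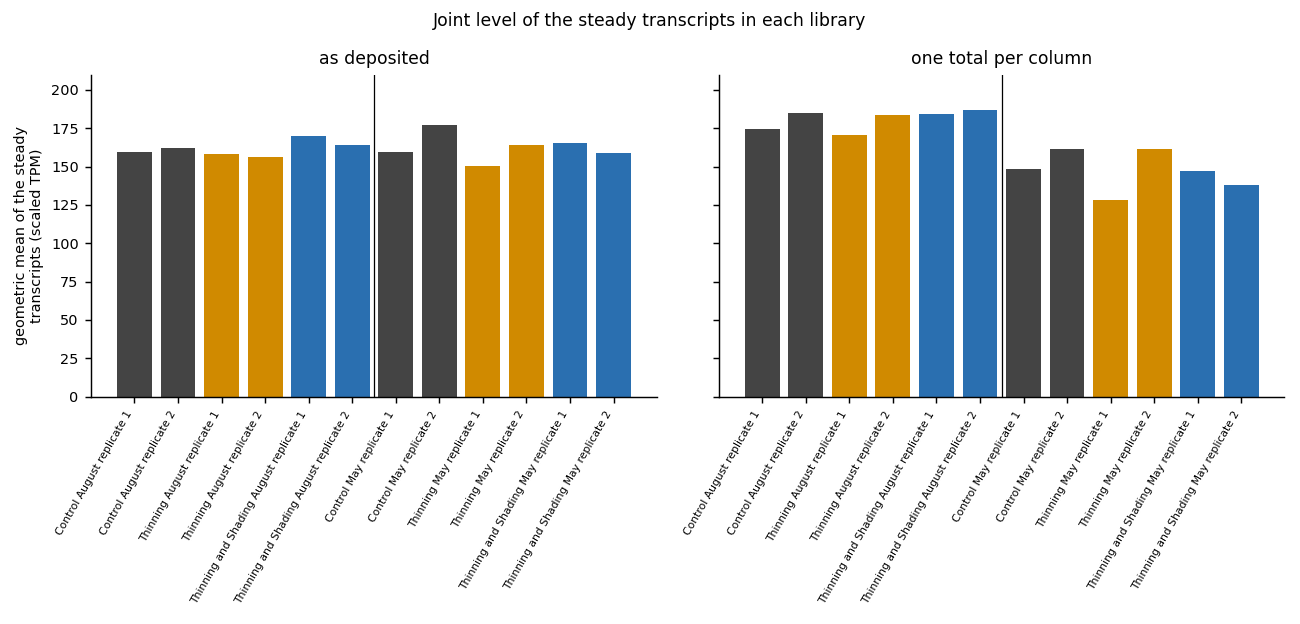
Geometric mean of the 86 steady transcripts in each library (bars, scaled TPM, from 0), as deposited (left) and with one total per column (right); grey bars are Control, orange bars Thinning and blue bars Thinning and Shading, with August left of the line and May right of it. As deposited the bars lie between 150.4 and 177; rescaled, all 6 August bars (170.5 to 187) stand above all 6 May bars (128 to 161).

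A comparison that needs no scaling is the ratio between 2 members within each library. For 3632 pairs from different assembly components, the highest ratio over the 12 libraries was between 1.14 and 2.97 times the lowest, with a median of 1.87. In 1220 pairs (33.6%) the ratio stayed within 1.75-fold, in 259 within 1.5-fold and in 10 within 1.25-fold, while in 1185 it moved by more than 2-fold. In most pairs the ratio thus moved by more than the limit set for the single transcripts.

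The pair of different components with the steadiest ratio was TRINITY_DN3056_c0_g1 with TRINITY_DN764_c0_g1, whose ratio lay between 1.03 and 1.18 in all 12 libraries although each varied more by itself, by 1.63 and 1.53 times. TRINITY_DN1394_c0_g1 over TRINITY_DN3578_c0_g1 lay between 0.732 and 0.862, with a mean August minus May difference of -0.00156 log2 units. At the other end, TRINITY_DN3063_c0_g2 over TRINITY_DN36125_c0_g1 went from 0.467 in Thinning and Shading May replicate 1 to 1.39 in Thinning May replicate 2. These pairs were chosen for their ratios and are a description.

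Averaged over its ratios to the other 85 members, the SD of the log2 ratio was lowest for TRINITY_DN3654_c0_g1, at 0.225, followed by TRINITY_DN2308_c0_g3 at 0.234, TRINITY_DN10619_c0_g1 at 0.235 and TRINITY_DN422_c0_g1 at 0.239. The first 3 are also the 3 with the narrowest deposited range. Both orders come from the values that chose the members, so the match is not a separate check. Partners from the same component are included in the average. The highest was 0.328, for TRINITY_DN36125_c0_g1, and the median was 0.273.

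Many of the members share their source. The 86 fall in 63 assembly components, and 46 of them form 23 pairs from 1 component. In 22 of the 23 pairs the ratio of the partners stayed within 1.5-fold over the 12 libraries, and the median correlation of their log2 values was 0.975 (12 libraries per pair), against 0.0755 over pairs from different components; such partners may be pieces or close copies of the same gene between which reads were divided. TRINITY_DN19626_c0_g1 was between 0.515 and 0.536 times TRINITY_DN19626_c0_g2 in every library. The exception was TRINITY_DN2308_c0_g2 with TRINITY_DN2308_c0_g3, both steady, whose ratio ran from 0.289 to 0.561: in Thinning May replicate 2 the former was at its lowest, 234, and the latter at its highest, 809.7.

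The same components also held 63 transcripts that are not members, and 39 of these had a mean of 10 or more. The rule had already placed 10 of the 39 outside the limit, since their means lay between 100 and 1000; their ratios were 1.77 to 4.38. Of the other 29, whose level the rule did not cover, 9 (31.0%) were within the limit and the median ratio was 2.25, with a range from 1.29 to 10.6. Over all 13264 transcripts with a mean of 10 or more and outside the range of the rule, 13.4% were within it and the median was 2.92. Transcripts of 1 component can share reads, so these are not independent of the members.

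Differences between thinned and control trees, averaged over months, ran from -0.32 to 0.26 log2 units, with 33 members higher in thinned trees and 53 lower. The median over the 86 was -0.048, and over all transcripts tested it was -0.086. By limma 0 of the 86 were called at an adjusted p under 0.05 and 4 had an unadjusted p under 0.05; of all transcripts tested 0.0913% were called and 14.3% had an unadjusted p under 0.05. The rule limits these differences too, so nothing is read from the counts. TRINITY_DN1755_c0_g1 had the largest deficit with thinning, at 138 ± 9.16 in the 4 control libraries and 112 ± 12.2 in the 8 thinned ones (SD). Its control values were 132 and 138 in August and 133 and 151 in May, and its thinned values ran from 98.4 to 136, so the groups overlapped. TRINITY_DN36125_c0_g1 followed, at 167 ± 14.4 and 138 ± 28.

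The largest excess with thinning was that of TRINITY_DN3056_c0_g1, at 164 ± 6.43 in control and 198 ± 32.9 in thinned trees. It lay mostly in August, where Control libraries held 158 and 168, Thinning libraries 230.1 and 201, and Thinning and Shading libraries 204 and 258; in May all 6 were between 159 and 182. TRINITY_DN357_c0_g1 was at 92.9 ± 8.67 and 110.3 ± 16.4. Over both months the libraries of 1 member did not overlap, TRINITY_DN1211_c1_g1, at 143 ± 15.7 in control and 122 ± 7.74 in thinned trees, with 130.2 as its lowest control and 129 as its highest thinned value. All tested transcripts parted in this direction in 0.507% of cases. After rescaling 0 members parted, against 0.72% of all tested transcripts.

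Between thinned trees with and without the mesh, which differ in light, the members ran from -0.13 to 0.35 log2 units (Thinning and Shading minus Thinning), with 60 higher under the mesh and 26 lower; after rescaling, 47 were higher and 39 lower. In August 61 of the 86 were higher under the mesh as deposited and 56 after rescaling, and in May 49 and 34. The same split over all tested transcripts is not given here, so nothing is read from these counts. TRINITY_DN43554_c0_g1 had the largest excess under the mesh. It stood at 196 and 175 in August and 187 and 166 in May under the mesh, and at 166 and 141 in August and 136 and 126 in May without it. Its lowest shaded value, 166.2, was above its highest unshaded one, 165.5, and control trees were between 142 and 194.

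The same order held in 4 members, which make up 2 components, TRINITY_DN43554_c0_g1 and g2 and TRINITY_DN19626_c0_g1 and g2, against 0.897% of all tested transcripts; after rescaling it held in 0, against 0.593%. TRINITY_DN19626_c0_g2, the most abundant member, was at 885 ± 101 under the mesh and 711 ± 36.1 without it (SD, n = 4). TRINITY_DN7490_c0_g3 was at 126 ± 15.3 and 101 ± 19.0, but its libraries overlapped. The largest excess without the mesh was that of TRINITY_DN1418_c0_g1, at 124 ± 21.6 against 112 ± 10.8, and TRINITY_DN958_c0_g2 followed at 240.1 ± 23.5 against 221 ± 33.7. All of these differences are within the 1.75-fold range that chose the members.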

How the data were processed

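Needle RNA of 12 field samples was read as poly(A)-selected libraries with paired reads of 150 bp, per the labels' protocols. The deposited values are a signal per assembled transcript; Trimmomatic, RSEM and DESeq2 are listed, per the submitters' processing notes, with no version. For the assembly, scaling and filters, the procedure is not given in the sources used here. With each column brought to the fixed sum of TPM, 99.35% or more of the values above 0 fell within 0.1 step of a multiple of 0.01, so the deposited signal is TPM times 1 factor per library. Depth is unknown and no count test was run. Columns were matched to samples by description and groups taken from titles.

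Members were found by the rule on deposited values. Rescaling divided each column by its total over the mean total. Tests used limma 3.58.1 (R 4.3.3) on log2(scaled TPM + 1), with 19726 transcripts at 10 or more in at least 2 libraries (19985 after rescaling), 6 group means, an intensity trend and Benjamini-Hochberg adjustment over all of them, and were tested on simulated data; all 86 members passed the filter. p-values are two-sided. The members and lists were chosen with earlier results of these data known. Named members have the narrowest ranges on either scale, the steadiest ratios, the highest and lowest means, the largest month, thinning and shading differences, or lie at the limit. The replicate numbers are not shown to pair samples, and the check made cannot exclude it (see the dependence on processing). A list of traditional reference gene families could not be applied without gene names.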

Additional observations from a re-analysis of the deposited data

Results flagged for a closer look

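Among 60 sets of 6 libraries, that is, the named members and the panel's geometric mean on both scales, each within 1 month, 3 held a library that stood apart from the other 5 by Dixon's criterion; chance gives about 1 in 20. TRINITY_DN19626_c0_g2 was at 1010 scaled TPM in Thinning and Shading August replicate 1. TRINITY_DN2147_c0_g1 was at 387.8 in Control May replicate 2. TRINITY_DN6757_c0_g1 was at 168.0 in Thinning August replicate 2.

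In 4 named members, the 2 August libraries as deposited lay above both May libraries in one treatment and below them in another. These differences were not tested, and each treatment and month has 2 libraries. For TRINITY_DN36125_c0_g1 the August minus May difference in Control was -0.626 log2 units relative to that in Thinning, and in Thinning it was 0.912 above that in Thinning and Shading. For TRINITY_DN7490_c0_g3 Control was at -0.74 relative to Thinning. For TRINITY_DN2651_c0_g1 Control was at -0.189 relative to Thinning, and Thinning at 0.442 relative to Thinning and Shading. For TRINITY_DN3654_c0_g1, which stayed within 1.5-fold under all 4 scalings, Control was at -0.381 relative to Thinning and Shading. After each column was rescaled to one total, TRINITY_DN2651_c0_g1 no longer showed such a reversal. Its Control values were then 109.9 and 119.5 in August, above 105.9 and 96.0 in May. TRINITY_DN3654_c0_g1 did not show it either. Its Control months then overlapped, at 122.0 and 129.4 in August against 123.6 and 124.2 in May.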

How the results depend on the processing

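The count of 86 was 61 on rescaling to one total, 95 by quantiles and 90 by median ratios; it was 23 at a fold limit of 1.5 and 188 at 2. Without 1 library it ran from 88 to 148, but leaving out a library cannot widen a range, so a rise was nearly fixed in advance. The 40 members left after rescaling were 76 with quantiles and 81 with median ratios in its place, and 40 to 52 without 1 library, an alternative chosen after seeing the data. Median ratios changed the deposited values little, so the counts of 90 and 81 are not separate checks. Members with months apart numbered 3, and 14 on rescaling, 3 by quantiles and 3 to 8 without 1 library. Leaving out a library cannot widen a range or make parted months overlap. The counts of 40 to 52 and 3 to 8 could therefore hardly fall, and are no check. Over all tested transcripts, 3102 were called between months by limma, and 5172 on rescaling, 1003 with a filter of 50 and 770 with none (fewer and more transcripts tested), and 1327 to 6468 without 1 library (lowest without Control August replicate 1, highest without Thinning May replicate 1; within 1.5 times the full count only without Control May replicate 2, 2258, or Thinning May replicate 2, 4478). Between thinned and control trees 18 were called, and 10 by quantiles, 151 with a pseudocount of 8, 67 with no filter and 0 to 477 without 1 library (103 and 477 without Thinning May replicate 1 and 2, at most 2 without any other); the cause was not tested. With the replicate number as a block, the calls were 2358 between months and 1 between thinned and control trees. The numbers are not shown to pair samples: over 15 pairs of groups the replicate differences correlated between -0.707 and 0.629, above 0.1 in 5.

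Between months, 0 members were called with either other pseudocount, with no filter and with the block. The count was 4 with a filter of 50, 5 by quantiles, 25 on rescaling, and 0 to 6 without 1 library. Of all transcripts tested, 3130 of 19700 were called by quantiles, 1003 of 4834 with a filter of 50 and 5172 of 19985 on rescaling. With pseudocounts of 0.5 and 8 the calls were 3060 and 3110, and the other settings are given above. The rule limits these differences, so nothing is read from the counts of members. Between thinned and control trees 0 members were called under every alternative run. The month difference of the 28 named members moved by less than the replicate spread in 28 under median ratios and in 24 under quantiles, and by more in 28 on rescaling. Median ratios and rescaling each move the month difference of every transcript by 1 same amount, 0.303 log2 units on rescaling. Both counts of 28 thus reflect a single shift and are not separate results for each member. Depth being unknown, it cannot be said how much of a range is counting error.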
